A study of Bos taurus with 15 samples.

Results

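The gene ABCG2 and the DNA around it were described by CpG methylation in 15 Holstein cattle. The locus was every CpG position listed on chromosome 6 from 37940000 to 38050000 of the bovine assembly UMD3.1.1, a stretch of 110 kb that holds ABCG2 at about 37959536 to 38030586. Over all animals, 672 positions of the locus had at least 1 read, and they fell into 22 of the 532193 bins of 5 kb on chromosomes 1 to 29 and X. The rule for the members uses position alone. The strand of the gene was not given with its bounds. The term gene start is therefore used for the end with the lower coordinate, which faces the gene PPM1K in the RefSeq gene order of a later assembly, and gene end for the end that faces PKD2 and SPP1. Exons, introns and untranslated regions were not annotated here, because no annotation of the build of the files was used.

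Liver was sampled in bull calves at birth, and mammary gland was sampled in heifers 21 days into lactation. The group IUCL-B comprised 5 bull calves and IUCL-H 3 heifers whose dams were cooled with shade, fans and soakers through the last 6 to 7 weeks of pregnancy. The group IUHT-B comprised 4 bull calves and IUHT-H 3 heifers whose dams had shade only and were heat stressed over the same weeks. The heifers were kept under shared conditions from birth, and each animal gave 1 library, so replicates were separate animals. Liver and mammary gland differed in tissue, sex and age together, and these cannot be told apart in any comparison between them. Each library came from a piece of whole tissue, so a methylation level is an average over the cell types in that piece. The labelled tissue was not checked against marker genes, because no expression values were used here.

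ABCG2 encodes an efflux pump of the ATP-binding cassette family that sits in the apical membrane of secretory and excretory epithelia. In the lactating mammary gland it is strongly induced and moves riboflavin, urate and many drugs and plant compounds into milk, and in the liver it exports substrates into bile. In mammals, CpG-dense DNA at the start of a gene is usually free of methylation, whereas most CpGs in gene bodies and between genes are methylated.

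Heifer libraries were broad and shallow, with 7552567 to 9753540 positions and a median of 1 read per position. Calf libraries held 307023 to 1052206 positions in 7 calves, and 3289592 and 5958861 in IUCL-B calves 4 and 5, which stood apart from the others. The same contrast held at the locus. Heifers had 151 to 243 locus positions and 208 to 325 calls each, 1 call being the state of 1 CpG in 1 read. IUCL-B calves 1 to 5 had 24, 19, 14, 59 and 128 locus positions, and IUHT-B calves 2 to 5 had 23, 5, 5 and 6. Their calls ranged from 67 to 845. Of 577 locus positions seen in heifers, 5 were read in all 6 heifers and 302 in only 1, and no position had more than 5 reads in a heifer. Of 231 positions seen in calves, 0 were read in all 9 and 193 in only 1. Calves had 76 pairs of an animal and a locus position with more than 10 reads, and at 72 of them every read was in 1 state, methylated or unmethylated. The study analysed cytosines with more than 10 reads. No locus position met this in all animals of either tissue, the requirement used here, against 14314 positions in mammary gland and 736 in liver over the chromosomes. Treatment was therefore compared in pooled calls and bins, not at single cytosines.

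Most of the locus was methylated in both tissues, and a short stretch at the gene start was not. Over the 22 bins the median pooled level was 79.8% in heifers and 100% in calves, where the level is the percent of calls that were methylated. In heifers 14 of 22 bins were at 75% or above and 2 were below 50%. In calves 18 of 22 bins were at 75% or above and 1 was below 50%. The bin that holds the gene start, from 37955000 to 37959999, was the lowest of the locus in both tissues, with 22.3% of 184 calls methylated in heifers and 11.9% of 546 calls in calves. Of 281409 bins of the chromosomes with at least 60 heifer calls, 7.28% were below 50% and 2.65% were lower than this bin. The bin just before it, from 37950000 to 37954999, stood at 88.3% in heifers and 100% in calves.

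**Figure D1:**
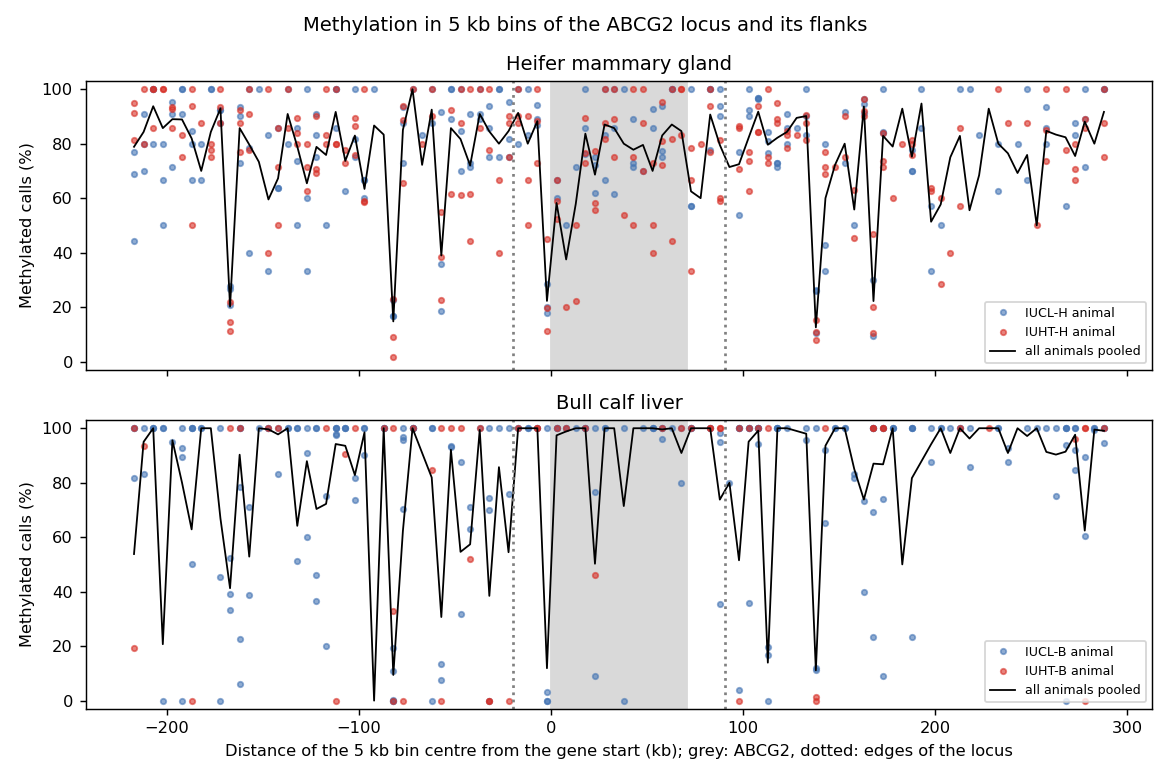
Percent of methylated calls (vertical axis) in 5 kb bins against the distance of the bin centre from the gene start in kb, for mammary gland above and liver below. Dots are animals with at least 5 calls in a bin, coloured by maternal treatment, and the black line pools all animals of the tissue. Both lines dip at the gene start, to 22.3% in mammary gland and 11.9% in liver, and other dips lie in the flanks.

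The dip was read at finer steps around the gene start. In heifers all 63 calls from 5000 to 1250 bases before the gene start were methylated. No heifer call lay from 1250 to 750 bases before it. In the 5 steps of 250 bases that follow, heifer levels were 20% of 10 calls, 8.11% of 37, 7.14% of 28, 11.9% of 59 and 8% of 25. From 500 to 750 bases into the gene the level was 31.8% of 22 calls, and from 750 to 1000 bases it was 53.3% of 15. In calves the steps around the gene start held 0 of 28 methylated calls from 500 to 250 bases before it, 12 of 390 in the first 250 bases of the gene and 0 of 49 in the next 250. The low levels thus ran from about 750 bases before to about 500 bases after the gene start in heifers, and this interval is called the start stretch. It was chosen after these values were seen, so no test was made of its level.

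In the start stretch the heifers of IUCL-H had 2 of 18, 0 of 10 and 2 of 39 methylated calls, and those of IUHT-H 0 of 8, 3 of 14 and 9 of 70. All 6 were low. IUHT-H heifers 2 and 3, at 21.4% and 12.9%, were above the IUCL-H heifers at 0 to 11.1%, and IUHT-H heifer 1 had no methylated call, so the groups overlapped. Pooled over heifers, 16 of 159 calls (10.1%) were methylated. In liver, IUCL-B calves 1, 3, 4 and 5 had 0 of 13, 1 of 3, 0 of 10 and 12 of 450 methylated calls, pooled to 13 of 476 (2.73%). No IUHT-B calf and not IUCL-B calf 2 had a read there, so the treatment of the dam could not be compared at the gene start in liver. At the 39 positions of the start stretch that were read in both tissues, 4.71% of 85 heifer calls and 3.28% of 274 calf calls were methylated.

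**Figure D2:**
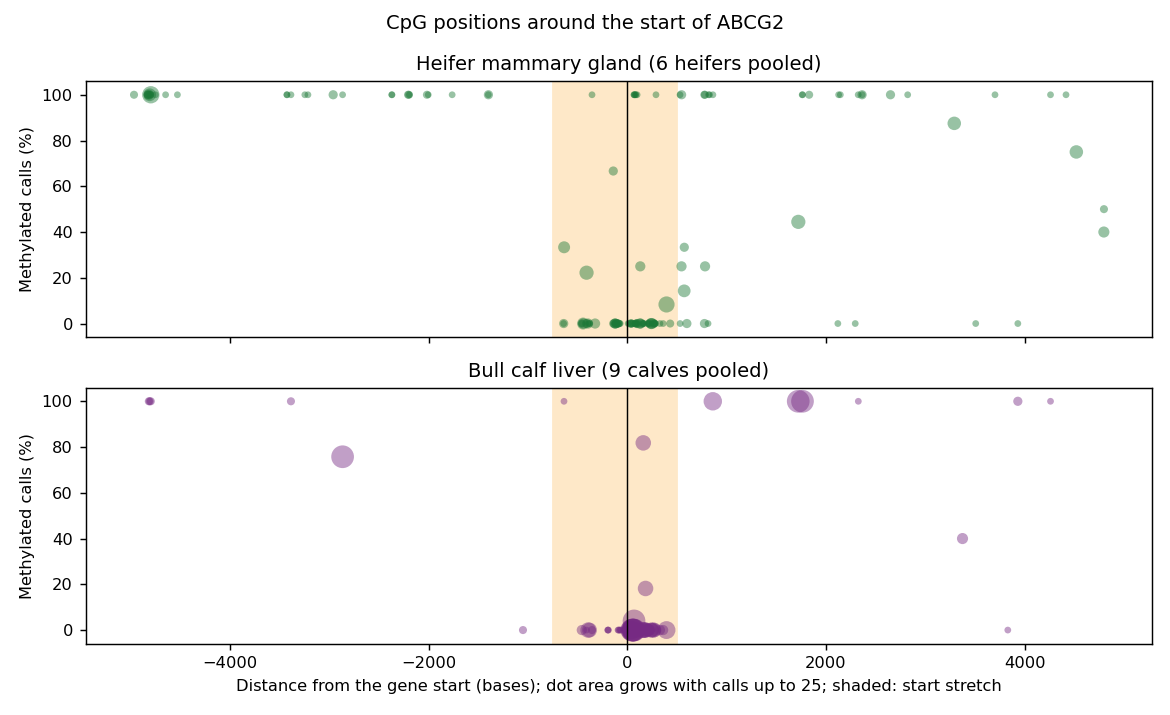
Percent of methylated calls (vertical axis) at each CpG position against its distance from the gene start in bases, pooled over 6 heifers above and 9 calves below. Dot area grows with the number of calls up to 25, and the shaded band is the start stretch, where 10.1% of heifer calls and 2.73% of calf calls were methylated.

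Behind the start stretch the tissues stood apart in pooled calls. From 500 bases to 15 kb into the gene, IUCL-H heifers 1 to 3 had levels of 72.7%, 55.9% and 57.1%, and IUHT-H heifers 66.7%, 60.9% and 40.0%, on 11 to 35 calls each. The 6 calves with at least 10 calls there had levels from 95.4% to 100%, with a mean of 98.9% ± 1.89 (SD, n = 6) against 58.9% ± 11.2 (SD, n = 6) in heifers. In these pooled calls the tissues did not overlap. With every position weighted alike they did, with calves at 50% to 100% (the lowest being IUCL-B calf 2, on 4 positions) and heifers at 53.6% to 75%. IUCL-B calf 1 had 1 unmethylated call here, and IUHT-B calves 4 and 5 had 3 and 1 methylated calls. The calf values rest on 1 to 7 positions per calf, the heifer values on 10 to 23. At the 8 positions of this interval that were read in both tissues, 5 of 16 heifer calls (31.3%) and 187 of 189 calf calls (98.9%) were methylated, and with every position weighted alike the means were 50% and 75%. Of these 8 positions, 5 differed by less than 50 points. Among these 8, positions 37967766 and 37967772 each held 0 methylated of 4 heifer calls and 0 of 1 calf call. They weigh on the 31.3% at shared positions. All heifer calls of the interval pooled to 55.9% of 145. At the positions read in both tissues the pooled calls of heifers and calves were elsewhere at 92.6% and 92.8% before the start stretch, 85.1% and 87.4% in the gene beyond 15 kb, 73.0% and 75.1% after the gene end and 66.4% and 72.0% over the 136 shared positions of the locus, of which 114 differed by less than 50 points. With positions weighted alike, heifers and calves were at 88.2% and 98.8% before the start stretch, 78.8% and 87.0% beyond 15 kb, 75.1% and 95.5% after the gene end and 57.1% and 65.1% over the locus. The bounds of this interval were also set after the values were seen, and no test was made. Farther into the gene, beyond 15 kb, the level was 80.0% ± 4.50 (SD, n = 6) in heifers and 85.2% ± 16.3 (SD, n = 5) in calves, with overlapping ranges.

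**Figure D3:**
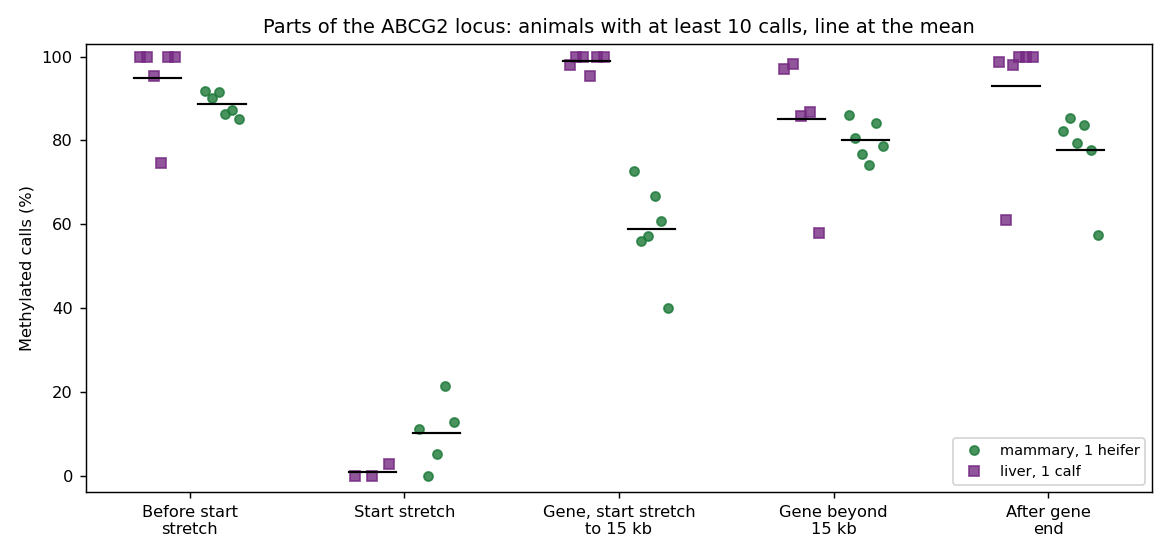
Percent of methylated calls (vertical axis) in 5 intervals of the locus for animals with at least 10 calls in the interval, with a line at the mean. Circles are heifers (mammary gland) and squares are calves (liver). Both tissues are low in the start stretch, and from its end to 15 kb the pooled calls of heifers sit between 40.0% and 72.7% and those of calves between 95.4% and 100%.

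Over the whole locus, mammary levels were 79.3%, 76.3% and 64.8% in IUCL-H heifers 1 to 3 and 74.0%, 78.0% and 58.2% in IUHT-H heifers 1 to 3. Liver levels were 94.6%, 76.0%, 97.5%, 86.9% and 43.0% in IUCL-B calves 1 to 5 and 81.5%, 100%, 100% and 100% in IUHT-B calves 2 to 5. Most calves lay above every heifer, but IUCL-B calf 5 lay below all of them and IUCL-B calf 2 within their range. The Wilson 95% interval was 94.6% to 100% for IUHT-B calf 4, with 67 calls at 5 positions, and 52.7% to 63.4% for IUHT-H heifer 3. These intervals take every call as independent and leave out the spread between animals. The reads carry no molecular identifiers and 1 read can give several calls, so the intervals may be too narrow even for counting error.

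The mean over calves was 86.6% ± 18.6 (SD, n = 9) and over heifers 71.8% ± 8.42 (SD, n = 6). The difference of 14.8 points did not pass a two-sided exact permutation test over the animals (p = 0.0885, adjusted p = 0.257 over 6 locus comparisons). It turned on IUCL-B calf 5, which had 53.3% of its locus calls in the start stretch, against 0 to 3.12% in the other calves and 3.85% to 21.5% in heifers. Without that calf the difference was 20.3 points (exact p = 0.00266), and without both wide libraries, IUCL-B calves 4 and 5, it was 21.0 points (exact p = 0.00524). With the start stretch left out of all animals, a choice made after seeing the data, calves averaged 92.5% ± 8.99 (SD, n = 9) and heifers 78.6% ± 4.93 (SD, n = 6), a difference of 13.9 points (exact p = 0.00679).

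**Figure D4:**
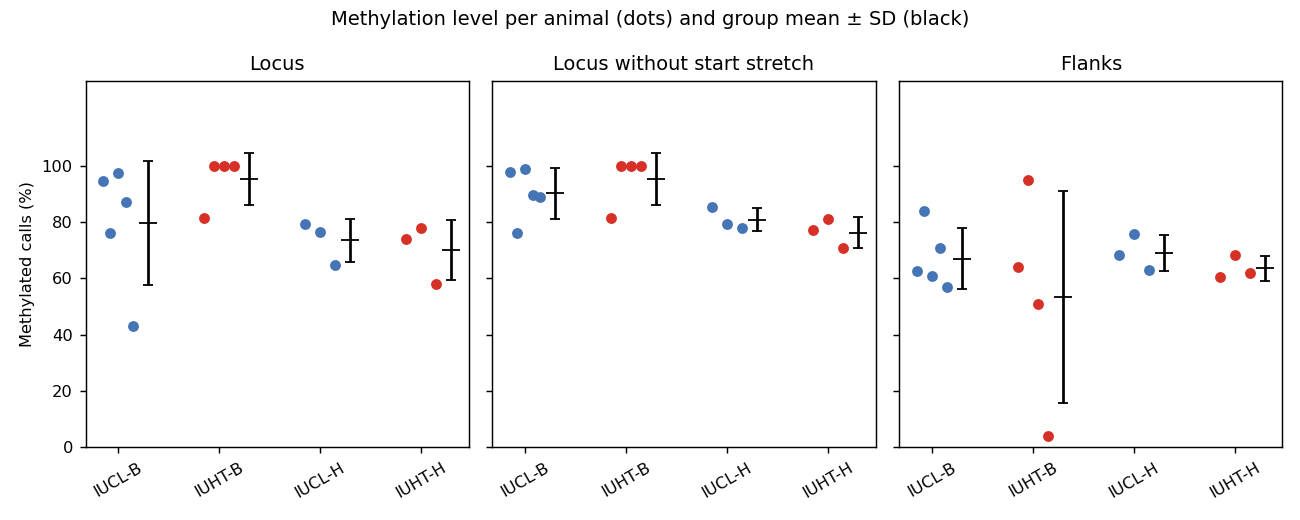
Percent of methylated calls (vertical axis) per animal in the locus, in the locus without the start stretch and in the flanks, by group. Dots are animals and black bars are the group mean ± SD. IUCL-B calf 5 is at 43.0% in the locus and at 88.9% without the start stretch, and the flanks of IUHT-B calves spread from 4.10% to 94.7%.

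The locus was also split at the gene bounds into 4 parts, and the mean was higher in calves in each. Before the gene start calves averaged 89.5% ± 20.2 (SD, n = 6) and heifers 69.3% ± 7.93 (SD, n = 6). In the first 5 kb of the gene, which holds part of the start stretch, the means were 56.9% ± 46.1 (SD, n = 6) and 40.8% ± 20.04 (SD, n = 6). In the rest of the gene they were 88.7% ± 15.5 (SD, n = 6) and 78.2% ± 5.11 (SD, n = 6), and after the gene end 93.0% ± 15.7 (SD, n = 6) and 77.6% ± 10.3 (SD, n = 6). No part passed the exact permutation test after adjustment over the 4 parts (adjusted p = 0.196, 0.455, 0.196 and 0.196, in this order). The difference in the first 5 kb, 16.1 points, was 7.53 to 27.5 without 1 animal (7.53 without IUCL-B calf 2 or IUHT-B calf 2, 27.5 without IUCL-B calf 1). It was 4.11 with positions weighted alike and 34.7 with at least 2 reads per position (5 calves and 3 heifers, exact p = 0.321). With positions above 10 reads left out it was -13.5, but only 2 calves then had 10 calls, against 6 heifers. In the other parts single calves also weighed heavily, since the difference was 28.2 points before the gene start without IUCL-B calf 5, 16.5 in the rest of the gene without IUHT-B calf 2 and 21.7 after the gene end without IUCL-B calf 2 (unadjusted exact p = 0.00216, 0.00433 and 0.00216). With positions above 10 reads left out, 4 calves and 6 heifers had 10 calls before the gene start and in the rest of the gene. The difference was then 12.3 points before the gene start (exact p = 0.257) and 2.46 in the rest of the gene (exact p = 0.771). With at least 2 reads per position it was 23.4 after the gene end (exact p = 0.0671). Calves with fewer than 10 calls in a part were left out of it.

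In bins of 5 kb the liver was called higher than the mammary gland at 4 of the 8 locus bins that could be tested, and lower at 0. A bin was called at a difference of at least 15 points and a q-value of 0.2 or less, from a logistic regression with a term for the spread between animals and an F test. Over the chromosomes 247510 bins were tested and 15.2% were called, 13.3% with liver higher and 1.84% with liver lower. The median difference was 14.2 points over the 8 locus bins and 6.23 points over all bins tested. Calves and heifers with fewer than 10 calls in a bin were left out of its fit.

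The called bins were spread from the gene start to the gene end. From 37960000 to 37964999, the first whole bin of the gene, liver stood at 100% of 138 calls (3 calves) and mammary gland at 59.0% of 78 calls (4 heifers), with q = 0.00844. Here IUCL-B calves 2 and 3 and IUHT-B calf 2 each had only methylated calls, at 1, 1 and 2 positions, and heifers ranged from 52.4% to 66.7%. Most calf calls lay at positions 37961300, 37961257 and 37960397, with 99, 27 and 16 calls, and no heifer was read at these. From 500 to 750 bases into the gene heifers were at 31.8% of 22 calls, and no calf was read. The fit thus largely compares different positions. IUCL-B calf 1 with 0 of 1 and IUCL-B calf 5 with 1 of 4 methylated calls were below the minimum and did not enter the fit. From 38030000 to 38034999, across the gene end, liver stood at 100% of 251 calls (4 calves) and mammary gland at 60% of 75 calls (5 heifers), with q = 0.00204. The heifers in this fit ranged from 33.3% to 78.6%, and IUCL-H heifer 2, left out with 5 calls, was at 100%.

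The other 2 called bins lay inside the gene and differed less. From 37975000 to 37979999 the levels were 100% of 55 calf calls and 83.7% of 98 heifer calls (q = 0.0489), and from 38015000 to 38019999 they were 99.5% of 220 and 83.7% of 98 (q = 0.0629). In the first of these IUCL-H heifer 2 was also at 100%. The liver values in all 4 bins came from 1 to 9 positions per calf. In the bins from 37960000, 37975000 and 38030000 the dispersion was 0.151, 0.872 and 0.865. The term for the spread between animals cannot go below 1, so it added nothing in these bins. Their q-values therefore treat calls as independent, although 1 read can give several calls. Liver lay above mammary gland without overlap at 4 of 8 locus bins, against 12.2% of all bins tested. It lay below without overlap at 0 of 8, against 0.577%. The bins without overlap included the uncalled bin from 37950000 and not the called bin from 37975000. In the bins from 37950000 and 38030000 a heifer with 5 to 10 calls, under the minimum, was at 100%. Without the term for the spread between animals, 5 of 8 locus bins were called, against 37.6% of all bins. The count of called bins fell to 2 of the 4 testable bins without IUCL-B calves 4 and 5, against 24.5% of the 161309 bins then tested.

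The 4 locus bins that were tested and not called included the gene start. There, IUCL-B calves 1, 2, 4 and 5 had 0%, 100%, 0% and 2.99% on 13, 50, 12 and 468 calls, and the 6 heifers ranged from 11.1% to 45%. The 50 methylated calls of IUCL-B calf 2 were all at 1 position outside the start stretch. The fit gave 11.8% in liver and 22.9% in mammary gland with q = 0.872. The bin before it, at 100% and 87.5%, missed the 15 points. From 38045000 to 38049999, the bin with the second most calf calls, the levels were 73.6% and 79.5% (q = 0.936). IUCL-B calf 2 was at 35.4% there, and the other 4 calves in the fit were at 95.1% to 100%. Position 38048276, 88740 bases from the gene start and among the 3 most read in calves, held 0 methylated of 104 calls in IUCL-B calf 2, 0 of 2 in IUCL-B calf 1 and 2 of 3 in IUCL-B calf 3. From 37980000 to 37984999 the 3 calves of the fit were at 9.09%, 76.5% and 46.0%, pooled to 47.8%, and mammary gland at 69.9% (q = 0.517).

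Single positions showed how few sites carried the liver calls. Position 38042855, 83319 bases from the gene start, had 352 calls in IUHT-B calf 5, all methylated, and 1 methylated call in each of 4 other calves. It gave most of the 371 locus calls of that calf and of the 385 calf calls of its bin. Position 37969498, 9962 bases into the gene, had 109 methylated calls of 109 in IUHT-B calf 3 and 16 of 16 in IUCL-B calf 5. The 3 positions most read in heifers were methylated. Position 38043464 had 15 of 15 methylated calls in 5 heifers, with 1 to 5 per heifer, position 37954739 had 14 of 14 in 5 heifers, and position 37986634 had 13 of 14, the exception being 1 of 3 calls in IUCL-H heifer 3.

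The locus was next compared with the 200 kb on each side in the same animals. In heifers the flanks were at 66.3% ± 5.70 (SD, n = 6), and the locus was above them by 5.48 points ± 6.84 (SD, n = 6), with 5 of 6 heifers above 0 (two-sided exact permutation test that flips signs within animals, p = 0.156, where 0.03125 is the smallest possible). In calves the flanks were at 60.9% ± 25.3 (SD, n = 9), and the locus was above them by 25.7 points ± 33.4 (SD, n = 9), with 7 of 9 calves above 0 (exact p = 0.0391, adjusted p = 0.234 over the 6 locus comparisons). The excess over the flanks differed between tissues by 20.2 points, which did not pass (exact permutation test, p = 0.172). That difference was 11.4 points without IUHT-B calf 5 (exact p = 0.247) and 12.8 with positions above 10 reads left out (exact p = 0.363). IUHT-B calf 5 had the widest gap in liver, 95.9 points, with flanks at 4.10% on 20 positions, and without it the mean in calves was 16.9 points (exact p = 0.0781).

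The flanks also held low bins. In heifers 5 of 80 flank bins were below 50%, against 2 of 22 in the locus. Their levels were 20.2%, 14.8%, 39.0%, 12.6% and 22.2%, at bin centres 167, 82.0 and 57.0 kb before and 138 and 168 kb after the gene start. In liver the first 4 of these were at 41.3%, 9.44%, 30.7% and 11.1%, whereas the last was at 87.0%. In liver 8 of 77 flank bins with calls were below 50%, against 1 of 22 in the locus. Besides those 4 they included bins at 20.7% of 111 calls, 38.5% of 260 and 13.9% of 373, centred 202 and 32.0 kb before and 113 kb after the gene start, where heifers were at 85.7%, 84.5% and 79.6%, and a bin with only 2 calls. With the start stretch removed from the locus and the flanks kept whole, heifers were above the flanks by 12.3 points (exact p = 0.03125, the smallest possible), but this comparison takes a low stretch from 1 side only.

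Against the rest of the chromosomes the locus was ordinary in heifers. Of 24150 windows of the same length with at least 10 calls in every heifer, 45.7% had a lower mean, and the median window was at 72.8%. The spread between heifers was wide, with an SD of 8.42 points against a median of 3.71, and 94.1% of windows had a smaller one. Without the start stretch the SD of the locus was 4.93. That stretch held 17.8% of the locus calls of IUCL-H heifer 3 and 21.5% of those of IUHT-H heifer 3, against 3.85% to 8.29% in the others. The locus had 1490 heifer calls and the median window 1944. In liver 81.3% of 15358 windows were lower. The locus had 3035 calf calls and the median window 7700, and the SD between calves was 18.6 points against a median of 13.9. The 3 windows whose levels over the 15 animals came closest were on chromosome 13 from 22660207 to 22770207, on chromosome 17 from 13200121 to 13310121 and on chromosome 4 from 44220403 to 44330403, with mean absolute differences of 3.48, 4.07 and 4.17 points, against a median of 13.8 over 15350 windows.

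The comparison of maternal treatments addresses whether prenatal heat stress altered DNA methylation in the offspring, and over the whole locus the mammary groups overlapped. IUCL-H averaged 73.5% ± 7.61 (SD, n = 3) and IUHT-H 70.1% ± 10.5 (SD, n = 3). The difference, -3.38 points for IUHT-H minus IUCL-H, did not exceed the spread between heifers (exact permutation test, p = 0.6, where 0.1 is the smallest possible). It changed sign to 2.58 points without IUHT-H heifer 3, the lowest heifer. Without the start stretch, in all heifers, it was -4.59 points (exact permutation p = 0.4). None of the 4 parts of the locus passed either (exact permutation p = 0.3 to 0.6). Their differences were -4.91 points before the gene start, 9.45 in the first 5 kb of the gene, -3.15 in the rest and -9.34 after the gene end. In the interval before the start stretch, whose end was set after the values were seen, the groups did not overlap in pooled calls. IUCL-H heifers were at 91.7%, 90.0% and 91.4% and IUHT-H heifers at 86.4%, 87.2% and 85.1% on 22 to 47 calls each. With every position weighted alike they overlapped, with IUCL-H heifers at 88.5% to 92.9% and IUHT-H heifers at 82.9% to 90.6%. No test was made. Among all 5 kb bins tested for treatment in heifers, 4.64% had IUHT-H lower without overlap. Without IUHT-H heifer 3 the treatment difference was -0.256 points before the gene start and -1.58 after the gene end, without IUHT-H heifer 2 it was -11.3 before the gene start, and without IUHT-H heifer 1 it was -14.7 after the gene end. The sign turned in the first 5 kb without IUCL-H heifer 3 (-5.35 points), in the rest of the gene without IUCL-H heifer 1 (0.0765) and after the gene end with at least 2 reads per position (1.37). With positions weighted alike it was -12.5 points after the gene end (exact p = 0.1, the smallest possible), and with at least 2 reads per position it was -11.6 before the gene start (exact p = 0.5).

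Only 2 locus bins had 10 calls in every heifer, and 0 of them were called for treatment. Of 199280 bins tested over the chromosomes, 0 (0%) were called by the F test, with 2741 at an unadjusted p under 0.05. Limma and edgeR's quasi-likelihood test on the same bins also called 0 (0%), with 9875 and 7613 at an unadjusted p under 0.05. Among 20000 simulated mammary bins the F test called 0 of 100 bins shifted by 50 points, so its count of 0 carries no weight. Limma called 97 and edgeR 100 of those 100 bins, and 71 and 84 of 100 bins shifted by 30 points. The simulated heifers of a group shared 1 level and differed by counting error only. Real mammary bins had a median dispersion of 1.34, above the value for counting error alone. The share of shifted bins that limma and edgeR would call in real data may therefore be lower.

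The bin from 38045000 to 38049999, next to the far edge of the locus, was the 1 locus bin in which the heifer groups did not overlap. IUCL-H heifers were at 100%, 90.0% and 93.8% on 14, 10 and 16 calls, and IUHT-H heifers at 60%, 81.3% and 59.1% on 10, 16 and 22. Pooled, this was 95% against 66.7%, a difference of -28.3 points (q = 1). Over all bins tested, the groups did not overlap with IUHT-H lower at 4.64% and with IUHT-H higher at 4.74%. Without the term for the spread between animals this bin was called, against 2.12% of all bins. The other bin, from 37975000 to 37979999, stood at 86.3% in IUCL-H and 80.9% in IUHT-H (q = 1). At a minimum of 5 calls 11 locus bins could be compared, and 10 of them had overlapping groups, with differences from -5.42 to 9.07 points. At this minimum 4.47% of all bins had IUHT-H lower without overlap and 4.82% had it higher. The bin with the gene start was at 20.3% in IUCL-H and 23.8% in IUHT-H.

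**Figure D5:**
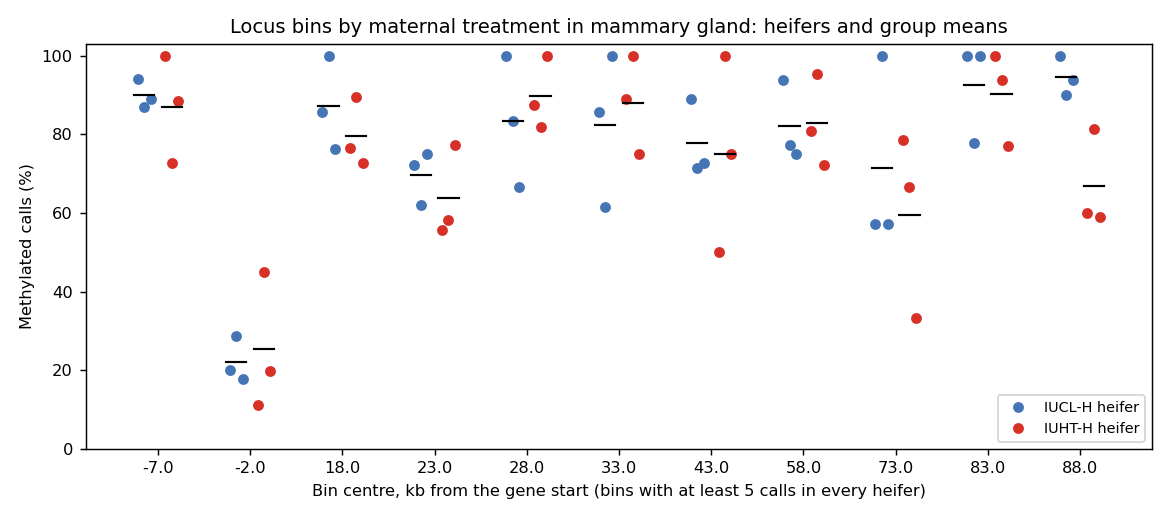
Percent of methylated calls (vertical axis) in the 11 locus bins with at least 5 calls in every heifer, by distance of the bin centre from the gene start in kb. Dots are heifers and black lines are means of the heifers of a group. The groups overlap in 10 bins, and at the last bin the IUHT-H heifers sit at 59.1% to 81.3% and the IUCL-H heifers at 90.0% to 100%.

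In liver, IUCL-B averaged 79.6% ± 22.1 (SD, n = 5) and IUHT-B 95.4% ± 9.25 (SD, n = 4). The difference of 15.8 points did not pass (two-sided exact permutation test, p = 0.214). It was 6.63 points without IUCL-B calf 5 (exact p = 0.371) and 6.02 without IUCL-B calves 4 and 5 (exact p = 0.457). With positions above 10 reads left out it was 28.6 (exact p = 0.0159). That setting had no minimum of calls. It removed 109 of the 113 locus calls of IUHT-B calf 3 and at least 352 of the 371 of IUHT-B calf 5. The groups covered different positions. Only 12 locus positions were read in at least 1 calf of each group. At 11 of them every call in both groups was methylated, and at the other, 3375 bases into the gene, IUHT-B had 1 of 1 and IUCL-B 1 of 4 methylated calls. Limited to these 12 positions, a choice made after seeing the data, the difference was 2.21 points (exact p = 1, with 4 calves in each group). With every position weighted alike IUHT-B had a mean of 97.8% ± 4.35 (SD, n = 4), above all 5 IUCL-B calves at 76.3% ± 13.5 (SD, n = 5), a difference of 21.6 points (exact p = 0.00794, the smallest possible). No IUHT-B calf was read in the start stretch. Without that stretch, the difference fell from 15.8 to 5.20 points in pooled calls (exact p = 0.421) and from 21.6 to 9.31 points with positions weighted alike (exact p = 0.0159). The part that the positions covered play in these differences was not tested further.

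No locus bin had 10 calls in 3 calves of each group, so no treatment test of bins was possible in liver, where 6.11% of 43355 bins were called over the chromosomes. After the gene end, the only part with at least 3 such calves per group, IUHT-B calves 2, 4 and 5 were all at 100%, and IUCL-B calves 1, 2 and 5 were at 98.8%, 61.0% and 97.9% (difference 14.1 points, exact p = 0.1, the smallest possible). Without IUCL-B calf 2 the difference was 1.66 points. The difference between treatments was 19.2 points larger in liver than in mammary gland, which did not pass (exact permutation of the treatment labels within tissues, p = 0.197).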

How the data were processed

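The assay was reduced representation bisulfite sequencing (RRBS). Per the study's methods, DNA was cut with MspI and TaqαI, fragments under 300 bp were converted, and 50 bp single-end reads were mapped by Bismark, set for post-bisulfite libraries, to UMD3.1.1, ignoring the first 6 bases when calls were extracted. The submitters' processing notes name Bismark 0.17.0 and Trim Galore 0.4.4. The authors deposited the count of methylated and of unmethylated calls per position. They also deposited the percent methylated, which equalled the percent recomputed from the counts in every line. Positions with 1 read were listed.

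Calls were pooled per animal over the locus, its parts and 5 kb bins. An animal needed 10 calls in a part or bin, and a bin 3 animals per group. Levels of the whole locus and of the flanks had no minimum of calls, also under the alternatives. Exact permutation tests, two-sided, compared single values, and the locus tests were adjusted by Benjamini-Hochberg. Bins on chromosomes 1 to 29 and X were tested by logistic regression with an overdispersion term and an F test (scipy 1.17.1), with limma 3.58.1 and edgeR 4.0.16 as alternatives, each tested on simulated mammary bins. Bins were called at 15 points and a q-value of 0.2. Wilson intervals were at 95%. Locus depth was 208 to 325 calls per heifer and 67 to 845 per calf.

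Bins named in the text were those at and next to the gene start, those with 10 calls in all heifers, every called bin and the 3 with the most liver calls, and positions were the 3 most read per tissue. The bin from 37980000 and the low flank bins were added after their values were seen. The locus, the lists and the tests were chosen with earlier results of these data known. Other alternatives weighted positions alike, left out positions above 10 reads, required 2 reads, or left out animals. Calf numbers shared by the liver groups belong to different animals, and heifers were numbered in the order of their records.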

Additional observations from a re-analysis of the deposited data

Results flagged for a closer look

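Values of the locus were compared within groups of 4 or 5 calves by Dixon's criterion, for 10 groups of values in all, of which 3 had a value far from the others. Chance flags about 1 in 20 groups of untied values, a rate that does not apply to IUHT-B, where the other calves were tied at 100% and 1 value was compared 2 times. IUHT-B calf 2 had a locus level of 81.5068%, whereas IUHT-B calves 3, 4 and 5 were all at 100%, and it had the same level, 81.5068%, without the start stretch, since it had no read there. Its 54 unmethylated calls all lay in the gene beyond 15 kb, at positions 37981612 and 37981638, with 27 calls each. No other calf was read at these. In that interval it was at 57.8% of 128 calls, and at 75% with its 8 positions weighted alike. It covered 23 locus positions and the other IUHT-B calves 5 or 6. IUCL-B calf 5 had 53.2544% of its locus calls in the start stretch, whereas the other IUCL-B calves had 0 to 3.12%.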

How the results depend on the processing

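Of 252 repeats of the results under other settings, 220 kept the direction and the side of the threshold (for counts, a value within 1.5 times), judged on unadjusted p-values. Of these repeats 74, in designs of 3 against 3 or fewer, in 5 heifers or 4 pairs, or by the F test in mammary bins, could not pass whatever the values, and their side of the threshold says nothing about stability; 150 of the other 178 kept both. The locus difference between tissues was 21.0 points without IUCL-B calves 4 and 5 and 13.9 without the start stretch, and both passed; without each animal in turn it was 12.1 to 20.3 points (exact permutation p = 0.00266 to 0.187). The excess over the flanks in liver was 18.3 points with positions above 10 reads left out (exact p = 0.133), and 16.9 to 30.6 without each calf, with exact p above 0.05 for 6 of 9 calves (IUCL-B calves 1, 3 and 4 and IUHT-B calves 2, 4 and 5). In mammary gland it was 12.3 points without the start stretch, and 3.83 to 7.30 without each heifer. Treatment in liver gave 21.6 points with positions weighted alike and 28.6 with positions above 10 reads left out, and 9.31 and 16.9 when the start stretch was also left out (exact permutation p = 0.0159 for both). Pooled calls without the start stretch gave 5.20 points (exact p = 0.421). Treatment in liver was 6.02 points without IUCL-B calves 4 and 5, and 6.63 to 20.4 without each calf.

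Treatment in mammary gland ranged from -7.69 to 2.58 points without each heifer, the latter without IUHT-H heifer 3. With positions above 10 reads left out, the tissue difference in the first 5 kb reversed to -13.5 points, on 2 calves and 6 heifers. Between mammary groups, the difference after the gene end reversed to 1.37 points with at least 2 reads per position. Without 1 heifer, treatment in the first 5 kb ranged from -5.35 to 19.2 points (reversed without IUCL-H heifer 3) and in the rest of the gene from -5.87 to 0.0765 (reversed without IUCL-H heifer 1), before the gene start from -11.3 to -0.256 and after the gene end from -14.7 to -1.58. Between tissues, the rest of the gene at 10.6 points and the stretch after the gene end at 17.0 passed unadjusted with positions weighted alike, as did 3 parts without 1 calf: before the gene start at 28.2 (IUCL-B calf 5), the rest of the gene at 16.5 (IUHT-B calf 2) and after the gene end at 21.7 (IUCL-B calf 2). With positions above 10 reads left out the difference was 12.3 points before the gene start and 2.46 in the rest of the gene. Each was on 4 calves and 6 heifers, and neither passed.

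Called tissue bins of the locus were 1 of 2 with 20 calls per bin (11.3% of all bins called), 2 of 4 without IUCL-B calves 4 and 5 (24.5%), 3 of 8 by limma (17%), and 2 to 5 of 5 to 8 testable bins without each animal in turn (12.1% to 20.7%). The 2 were of 8 without IUHT-H heifer 3, of 6 without IUCL-B calf 3 and of 5 without IUCL-B calf 4 or 5. Over all chromosomes the likelihood-ratio test without overdispersion called 93093 tissue bins against 37515, and 20 calls per bin 18446. For treatment in mammary gland the likelihood-ratio test called 1 of 2 locus bins, from 38045000, and 4225 of 199280 bins (2.12%).

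With calves 2 to 5 paired by their shared number (replicate block), treatment in liver gave 19.5 points, higher in 4 of 4 pairs (exact p = 0.125, the smallest possible). Same-numbered calves did not deviate together over 8292 bins (correlations -0.00808 to 0.00492). Calves with different numbers were at -0.0126 to 0.0248. Bin levels in calves rest on few positions, so this check could miss a shared block and does not settle whether the numbers mark one. No locus bin could be tested with 20 calls in mammary gland or with positions above 10 reads left out for the tissues. The same held in liver for treatment at 10 or 5 calls per 5 kb bin, and 10 kb bins were not tried there. No locus position could be used for the site tests. Depth limits all of these, at 1 to 5 reads per position in heifers and 5 to 6 locus positions in 3 of 4 IUHT-B calves.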
